A study of Equus caballus with 4 samples.

Results

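The genes described here encode interferon-linked members of the poly(ADP-ribose) polymerase (PARP) family and antiviral restriction factors: PARP9, PARP12, PARP14, DTX3L, BST2, SAMD9, SAMHD1, XAF1, IFI35 and ZC3HAV1. Their probes were found by the gene symbol that the array files give, ignoring case. Of the 10 genes listed, 9 had at least 1 probe under that symbol, and together they had 12 of the 43603 noncontrol probes. PARP9, PARP14 and SAMD9 had 2 probes each and the other 6 genes 1 probe each. ZC3HAV1 was not found by its symbol, but 2 probes carry its name in their description, and these are given apart and counted nowhere among the 12. The genes were chosen with the ratios between the channels already known, so these ratios are given as a description. No p-value is printed for them, and the limma calls on them are counted only beside the calls over all genes or probes.

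Both groups were primary satellite cells of the *semitendinosus* muscle of young male horses, on the third day of differentiation. GO-treated cells had received 125 nM gamma-oryzanol (GO), a mixture of ferulic acid esters from rice bran oil, for 24 h in DMSO, and control cells had received the same dose of DMSO alone (0.04 µl/ml). Labeled cRNA from both groups shared each of 4 two-color arrays of 1 slide, always with Cy5 for GO-treated and Cy3 for control cells. Without a dye swap, what the dye and what GO did to a probe cannot be told apart. The labels call the arrays biological replicates, and the methods say that the best-scoring of the horses' cultures was taken further, but not which horse or culture each array came from. The spread between arrays may be in part technical. Of the noncontrol spots of an array, 63.5 to 68.9% stood well above background in control cells and 57.4 to 67.0% in GO-treated cells, and 0 were saturated. With 4 arrays, precision is limited throughout. In RNA from whole cultures, fewer cells of a type and less RNA per cell cannot be told apart.

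Interferons are secreted by cells that sense foreign or misplaced nucleic acid. They bind receptors on the same and neighboring cells, and the kinases there activate transcription factors, which enter the nucleus and switch on a large group of antiviral genes. PARPs attach ADP-ribose to proteins or nucleic acids, and several members of the family belong to that group of genes, as do restriction factors, which stop single steps of viral replication. Myogenic cells carry interferon receptors and use the same pathway.

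Sequences are shown for DTX3L, PARP14 and SAMD9, where a probe ended in a stop codon in an open frame. Each is given 5′ to 3′ in the sense of the transcript, and capitals mark a stop codon at the last 3 bases in an open frame. The probes of PARP14 abut on the genome with 0 bases between them, as do those of SAMD9. Joined in the order of the transcript, each pair reads as 40 codons with 0 stops before the last. Whether the marked stops end the coding sequences was not checked against transcripts or proteins.
DTX3L: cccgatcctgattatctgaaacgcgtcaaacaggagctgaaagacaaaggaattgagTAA
PARP14 probe A: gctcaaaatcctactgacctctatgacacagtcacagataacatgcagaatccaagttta
PARP14 probe B: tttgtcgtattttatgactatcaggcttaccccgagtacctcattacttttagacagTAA
SAMD9 probe B: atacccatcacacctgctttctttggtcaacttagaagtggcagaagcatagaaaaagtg
SAMD9 probe A: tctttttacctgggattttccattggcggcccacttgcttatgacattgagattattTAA

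Probe A is the brighter probe of a gene. On EquCab1, the build of the array files, DTX3L lies at chr19:32984651-32984710 and PARP14 at chr19:32853969-32854028 and chr19:32853909-32853968, all on the minus strand. The SAMD9 probes lie at chr4:36279859-36279978, also on the minus strand. No probe of the 12 shared a run of more than 15 bases with a probe of another gene.

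GO-treated cells had a lower signal than control cells for 8 of the 9 genes, on all 4 arrays and with every probe. SAMHD1 was the exception. The methods set thresholds for the adjusted p (no higher than 0.05) and for the fold change (1.3 or more, which is 0.38 on the log2 scale). Past both were 7 of the 8 genes that passed the filter on dim probes, all lower and 0 higher, beside 5.37% of 9510 named genes lower and 3.3% higher. Because the genes were chosen on these ratios, nothing is read from that count. DTX3L and XAF1 passed the filter through the control channel alone, and with both channels required 5 of 6 genes were lower past both thresholds. At an unadjusted p under 0.05 the count of higher genes was also 0. The median log2 ratio of the 8 genes was -1.17, beside 0.00 over all named genes tested, and it was -1.05 with DTX3L at the bound given below. By probe, 9 of 11 tested probes were lower past both thresholds, beside 5.61% of 26833 probes. Among them, the DTX3L and XAF1 probes and SAMD9 probe B passed the filter through the control channel alone. Lower on all 4 arrays were 10 of the 11, beside 21.5% of all probes tested. The GO signals of 6 of the 11 all lay below the control signals, beside 5.39% of all probes tested.

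**Figure D1:**
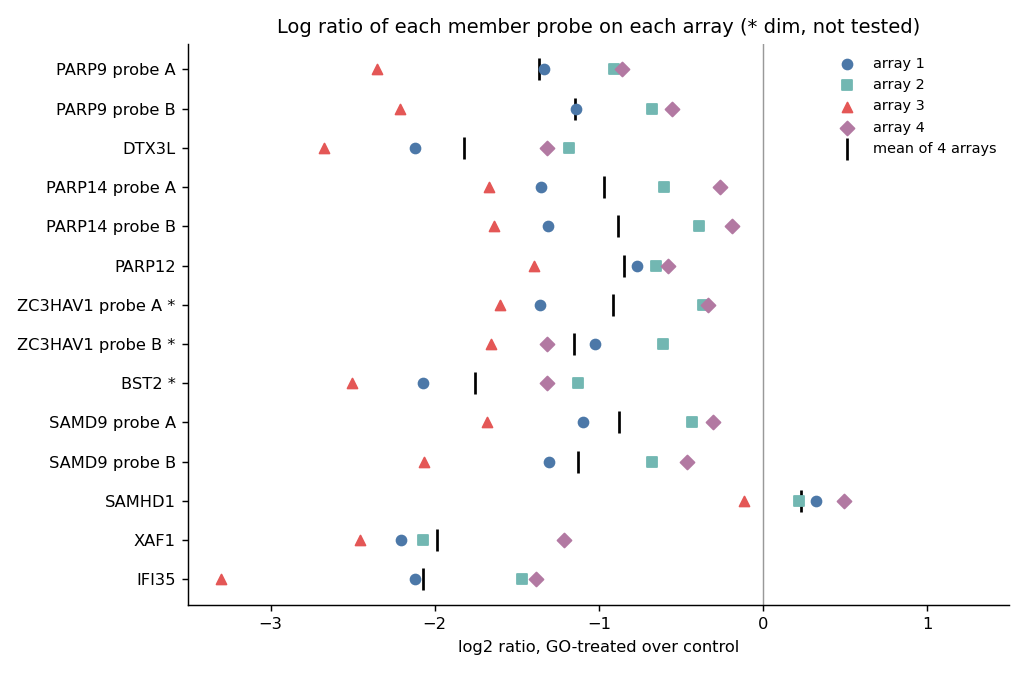
Log2 ratio (GO over control) of each probe on the x axis, with 1 symbol per array and a vertical bar at the mean of the 4 arrays. Every probe apart from that of SAMHD1 lies below 0 on all 4 arrays, and its lowest value is on array 3; an asterisk marks probes too dim to be tested.

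PARP9 and DTX3L act together: PARP9 is a macrodomain protein with little catalytic activity of its own, and DTX3L is the ubiquitin ligase that binds it. The log2 ratios of PARP9 probe A (chr19:33030960-33031019) were -1.34, -0.91, -2.35 and -0.86 on arrays 1 to 4. Its signal was 217, 127, 366 and 102 in control cells and 85.9, 67.6, 71.7 and 56.1 in GO-treated cells. The groups did not overlap, and the highest control signal, on array 3, faced a GO signal in the middle of its range. The mean ratio was -1.36 ± 0.69 (SD, n = 4), or 38.8% of control. Probe B (chr19:33031038-33031097), 18 bases further on, had -1.14, -0.68, -2.21 and -0.55, with a mean of -1.15 ± 0.75. The probes ranked the arrays in the same order.

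For DTX3L the log2 ratios were -2.12, -1.18, -2.67 and -1.32, with a mean of -1.82 ± 0.70 (SD, n = 4). Control signals were 47.4, 27.9, 91.2 and 26.5, and GO signals 10.9, 12.3, 14.3 and 10.7. The groups did not overlap, but the GO signal was well above background on 0 of 4 arrays, whereas the control signal was so on all 4. The ratio is therefore a bound: in the processed signals DTX3L was at least 2.18-fold lower in GO-treated cells. Here the GO level of each array was set at the dimmest signal there that was well above background. With normexp background correction and loess in place of the deposited ratios, the log2 ratio was -0.36, short of this bound. Such bounds compare levels of the channels after quantile scaling of the mean intensity between arrays and, without a dye swap, are open to dye bias.

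PARP14 is a large enzyme with macrodomains that attaches single ADP-ribose units and is known for its part in STAT6 signaling and macrophage activation. Probe A had log2 ratios of -1.35, -0.60, -1.67 and -0.26, with a mean of -0.97 ± 0.65 (SD, n = 4). Its control signals were 340, 159, 413 and 146, against GO signals of 133, 105, 130 and 121. The groups did not overlap, though on array 4 GO-treated cells still had 83.3% of the control signal. Probe B had -1.31, -0.39, -1.64 and -0.19, a mean of -0.88 ± 0.70. Here the lowest control signal, 107.8 on array 4, lay within the range of the GO signals, 94.3 to 115. Probe A was past both thresholds and probe B was not, with means only 0.09 apart on the log2 scale.

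PARP12 is a zinc-finger PARP that blocks translation of some viral RNAs. Its log2 ratios, -0.77, -0.65, -1.39 and -0.58, were the closest together of the lower genes (mean -0.85 ± 0.37, SD, n = 4; 55.5% of control). Signals of 471, 448, 639 and 337 in control cells and of 277, 285, 243 and 226 in GO-treated cells did not overlap. The probe lies on unplaced sequence of EquCab1.

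ZC3HAV1, the zinc-finger antiviral protein, is a PARP relative without catalytic activity that binds viral RNA rich in CpG. Its 2 probes, named by description alone, abut and end in a stop codon. The brighter had log2 ratios of -1.36, -0.36, -1.60 and -0.34, and the other -1.03, -0.61, -1.66 and -1.31. Both were lower on all 4 arrays, but neither passed the filter, being well above background in control cells on 3 arrays and in GO-treated cells on 1 and 0. For the dimmer probe the bound was 1.43-fold lower. It averages in a control signal that was not well above background, so it is not a strict limit. The GO signal of this probe on array 4 had been replaced by the software with a level near background.

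BST2 (tetherin) is a membrane protein that holds budding enveloped viruses at the cell surface. Its log2 ratios were -2.07, -1.13, -2.50 and -1.31, with control signals of 38.7, 13.9, 59.6 and 17.6 and GO signals of 9.23, 6.36, 10.5 and 7.08. The groups did not overlap. BST2 was not tested, because the control signal was well above background on 3 arrays and the GO signal on 0. The bound was 1.43-fold lower, and it too averages in a control signal that was not well above background. On array 4 the GO signal of BST2 had been replaced in the same way.

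SAMD9 is a cytosolic protein that restricts poxviruses and slows growth and translation. Its log2 ratios were -1.10, -0.43, -1.68 and -0.30 with probe A (mean -0.88 ± 0.64, SD, n = 4) and -1.30, -0.68, -2.06 and -0.47 with probe B (mean -1.13 ± 0.72). The GO signal of probe B was well above background on 3 arrays. Control signals of probe A, 99.1, 83.8, 130 and 50.9, overlapped the GO signals of 46.4, 62.0, 40.4 and 41.2. Array 4 alone made the overlap, with a control signal below the GO signal of array 2.

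SAMHD1 cleaves deoxynucleotides and so starves reverse transcription. It was the only gene of the 9 without a lower signal: its log2 ratios were 0.32, 0.22, -0.11 and 0.49, with a mean of 0.23 ± 0.26 (SD, n = 4). Control signals of 22.4, 30.6, 28.5 and 26.1 overlapped GO signals of 28.0, 35.6, 26.3 and 36.7. On array 3, where all the other genes had their lowest ratio, SAMHD1 also had its own lowest. Its probe (chr22:27408241-27408300) was dim but well above background in both channels on all 4 arrays.

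XAF1 binds XIAP and frees caspases from it. The log2 ratios were -2.21, -2.07, -2.45 and -1.21, with a mean of -1.99 ± 0.54 (SD, n = 4), or 25.2% of control. Control signals were 232, 78.6, 543 and 44.9 and GO signals 50.3, 18.7, 99.1 and 19.3, so that the groups overlapped although the ratio was low on each array. The 60 bases of this probe span 1851 bases of the genome (chr11:46899783-46901633), that is, more than 1 exon.

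IFI35 is a leucine-zipper protein that pairs with NMI and acts in the cytosol and as a secreted signal. Its log2 ratios of -2.12, -1.47, -3.30 and -1.38 gave a mean of -2.07 ± 0.89 (SD, n = 4), or 23.8% of control. No other of the 9 genes had a lower measured mean, but DTX3L and BST2 are known by a bound alone and XAF1 was well above background in GO-treated cells on 3 arrays, so their order against IFI35 is not settled. Control signals were 2261, 1307, 5587 and 1055, and GO signals 519, 471, 567 and 405. The control signal of array 3 was 5.29 times that of array 4, while the GO signals stayed within 1.40 times of each other. Of all tested probes, 0.168% had a lower mean ratio.

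**Figure D2:**
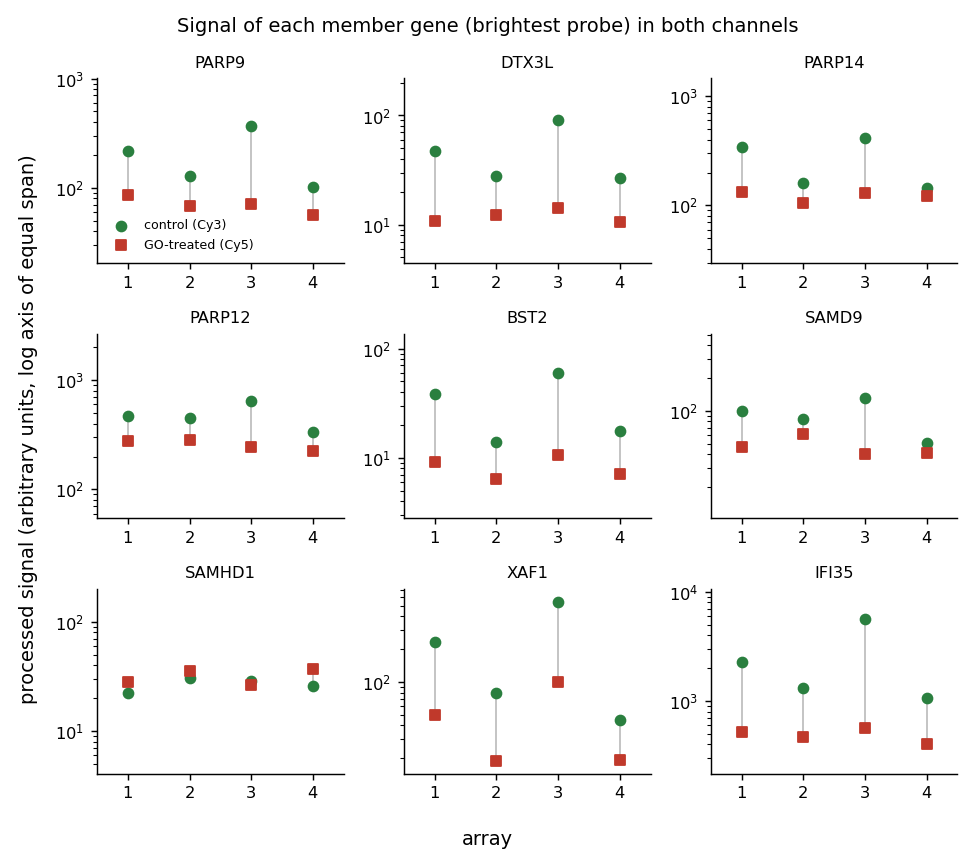
Processed signal in control (green circles) and GO-treated cells (red squares) on arrays 1 to 4, for the brightest probe of each of the 9 genes, on log axes of equal span; gray lines join the channels of 1 array. Control signals peak on array 3 for every gene apart from SAMHD1, and GO signals vary less, as in IFI35 (1055 to 5587 against 405 to 567).

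The same arrays stood out for each gene. All 11 probes of the genes other than SAMHD1 had their lowest ratio on array 3 and the second lowest on array 1, and all 11 had their highest control signal on array 3. Over the 1505 probes lower past both thresholds, 44.6% were lowest on array 3, and over all tested probes 23.3%. The median ratio of the 8 tested genes was -1.34, -0.78, -2.02 and -0.72 on arrays 1 to 4. Over all tested probes the medians lay at 0.00 to 0.01, and the SD of the ratios was 0.33, 0.27, 0.37 and 0.35.

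The signals of these genes varied between arrays in control cells above all. The highest control signal was 1.90 to 12.1 times the lowest across the 11 probes (median 3.59), and the highest GO signal was 1.22 to 5.30 times the lowest (median 1.40). All 11 had the larger spread in the control channel, which held for 57.7% of tested probes. For DTX3L and BST2 the GO signals were well above background on 0 of 4 arrays, and their narrow GO spread is that of such dim signals. The typical tested probe varied 1.41-fold in the control channel and 1.35-fold in the GO channel. In the background-subtracted signals before dye normalization, each channel centered on its median, the medians of the 11 probes were 3.33 and 1.71 and those of all tested probes 1.37 and 1.48. All 11 again spread more in the control channel. Those signals were normalized within arrays only. After quantile scaling between arrays all 11 still spread more in the control channel. The control spreads then ran from 1.70-fold (PARP12) to 10.6-fold (XAF1), against GO spreads of 1.19-fold and 5.54-fold for the same genes.

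**Figure D3:**
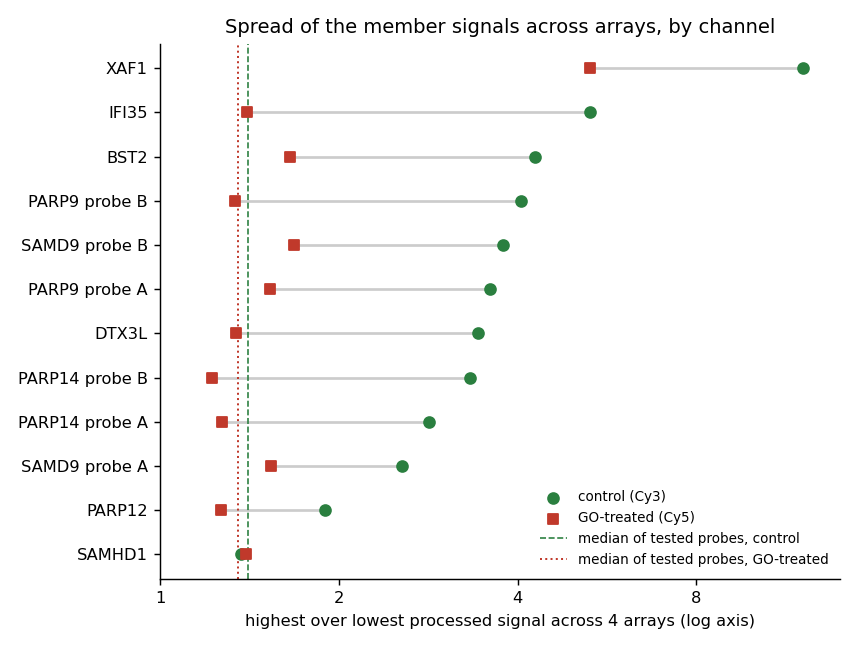
Highest over lowest processed signal across the 4 arrays for each probe of the 9 genes, in control (green circles) and GO-treated cells (red squares), on a log axis; vertical lines mark the medians over all tested probes (1.41 and 1.35). All probes but that of SAMHD1 spread more in control cells, up to 12.1-fold for XAF1.

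In the rest of the PARP family, 1 of the tested genes was lower past both thresholds. Of the other ADP-ribosyltransferases and ADP-ribose hydrolases, 20 names were listed, 18 had a probe and 16 were tested. The lower gene was PARP15, which lies between PARP14 and DTX3L, 0 were higher, and the median log2 ratio was 0.03. PARP15 had log2 ratios of -1.94, -1.70, -2.01 and -1.51, close together, with a mean of -1.79 ± 0.23 (SD, n = 4; adjusted p = 0.000805, limma with Benjamini-Hochberg adjustment over all probes), and its GO signal was well above background on 3 arrays. Its other probe had a mean of -2.06, with GO signals well above background on 2 arrays. Both probes passed the filter through the control channel alone. At an unadjusted p under 0.05 (limma), 3 genes of this list were higher. The other listed genes with a probe were too dim to be tested. PARP10, another interferon-linked family member, had log2 ratios of -0.73, -0.72, -2.68 and -0.94. The brightest PARP16 probe was higher on all 4 arrays, at 0.54 to 1.58 with a mean of 1.18 ± 0.45 (SD, n = 4). It was well above background in control cells on 1 array and in GO-treated cells on 3. PARP16 had 5 probes, all untested, and their means ran from 0.04 to 1.18.

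Genes that bind the members or share their pathways were tested next: 18 listed, all with a probe, and 16 tested, with a median log2 ratio of 0.03. IFIH1 (MDA5), a sensor of double-stranded RNA, fell by 3.25 ± 1.16 on the log2 scale (SD, n = 4; adjusted p = 0.00560, limma), but its GO signal was well above background on 1 array alone, so the size of the fall rests mostly on signals that were not. This IFIH1 probe passed the filter through the control channel alone. BIRC3, a relative of the XAF1 target XIAP, rose by 0.46 ± 0.27 (adjusted p = 0.0333, limma). NMI, the partner of IFI35, did not pass, with log2 ratios of -0.28, 0.11, -0.62 and 0.14.

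The other restriction factors held 6 lower genes. Of 36 names listed, some of them old and new names of 1 gene, 19 had a probe and 12 were tested, of which 0 were higher and 6 neither. The median was -0.73. MX1, a GTPase that traps viral nucleocapsids, fell by 3.07 ± 0.70 on the log2 scale (adjusted p = 0.00190, limma, n = 4). SAMD9L, the paralog of SAMD9, had log2 ratios of -3.13, -1.36, -3.98 and -0.73, a wider spread than either SAMD9 probe, with a mean of -2.30 ± 1.51 (adjusted p = 0.0289, limma). The others were GBP5, a guanylate-binding protein (-1.64 ± 0.63), HERC5, the ligase for ISG15 (-1.47 ± 0.85), MX2 (-1.19 ± 0.76, with GO signals well above background on 3 arrays) and the exonuclease ISG20 (-0.75 ± 0.37), with adjusted p of 0.00674, 0.0206, 0.0287 and 0.0162 (limma). GBP5 had 5 probes, 3 of them tested, and the means of the 5 ran from -1.64 to -0.20. HERC5 had 3 probes, 1 of them tested, with means of -1.70 to -1.47. MX2 had 2 probes, both tested, with means of -1.97 and -1.19. The brighter MX2 probe passed the filter through the control channel alone. At an unadjusted p under 0.05, 1 gene of this list was higher.

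Of the interferon signaling genes, 21 were listed, 20 had a probe and 16 were tested, with a median of -0.02. Among the lower genes were USP18, which shuts off the receptor (-2.87 ± 0.91; adjusted p = 0.00436, limma, n = 4), IRF7 (-2.32 ± 0.43; adjusted p = 0.00120) and IRF9 (-1.24 ± 0.47; adjusted p = 0.00677), and 0 were higher (1 at an unadjusted p under 0.05). IFNB1, the gene of interferon beta, was well above background in neither channel on any array. The brightest probes of the interferon genes IFNA1 and IFNG were so on 1 array in each channel, and neither gene was tested. Means of the 3 IFNG probes ran from 0 to 1.17. In these 4 lists 12 genes were lower past both thresholds, and all 12 had their lowest ratio on array 3, as the PARPs and restriction factors above did. A wider control range was also seen beyond the genes described here. Summed signals of the other restriction factors were 5826 to 39114 in control and 3911 to 6526 in GO-treated cells. For interferon signaling genes they were 13299 to 26920 and 10798 to 12850, and for partners 21330.5 to 31312 and 20939 to 24507. The other PARP family genes, at 7752 to 9039 and 7728 to 9517, had no wider control range. The lists were drawn up with interferon-linked falls in these data already known.

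**Figure D4:**
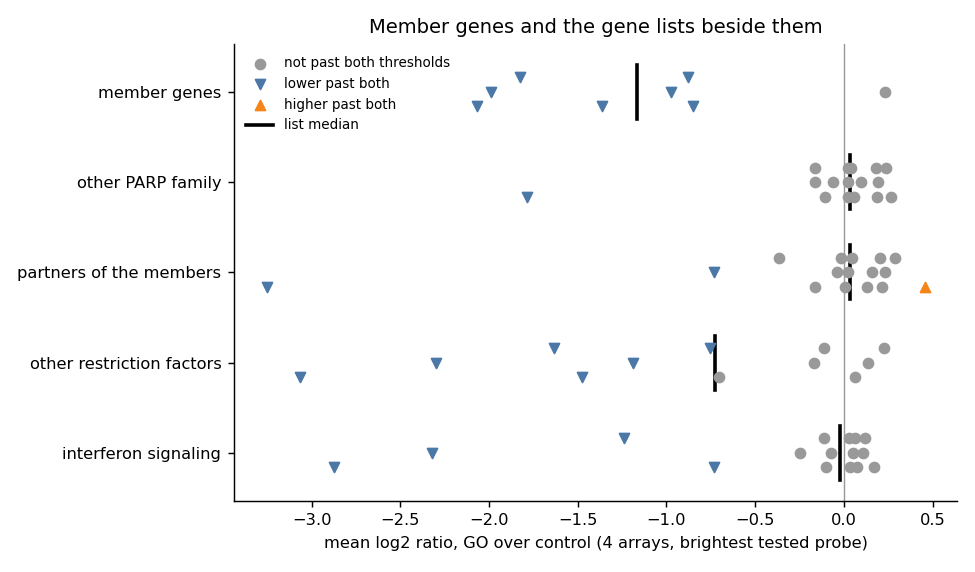
Tested genes of each list by their mean log2 ratio (GO over control), 1 symbol per gene, with a black bar at the list median. Medians are -1.17 for the genes described here, 0.03 for the other PARP family genes, 0.03 for the partners, -0.73 for the other restriction factors and -0.02 for interferon signaling; the first was chosen on these ratios.

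PARP14, DTX3L and PARP9 lie within 177 kb of chromosome 19. In that span and 300 kb to each side, 20 probes not named for the 3 genes were tested. Of these 5 were lower, 3 higher and 12 neither, with a median log2 ratio of 0.00. The lower ones were the 2 probes of PARP15 and 3 probes of an unnamed expressed sequence tag at -91.5 to -91.6 kb from the middle of the span, beside PARP14 at -88.5 to -88.6 kb. The tag had mean log2 ratios of -0.96 to -1.03 (adjusted p between 0.00696 and 0.0112, limma, n = 4), near those of PARP14. It lies on the side of the stop codon read in PARP14 probe B, and whether it belongs to the PARP14 transcript was not tested. HSPBAP1, the next gene outward at -93.5 to -93.6 kb, had mean ratios of 0.04 and 0.05. The 3 higher probes all belonged to CSTA, a protease inhibitor, at 0.71 to 0.76.

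**Figure D5:**
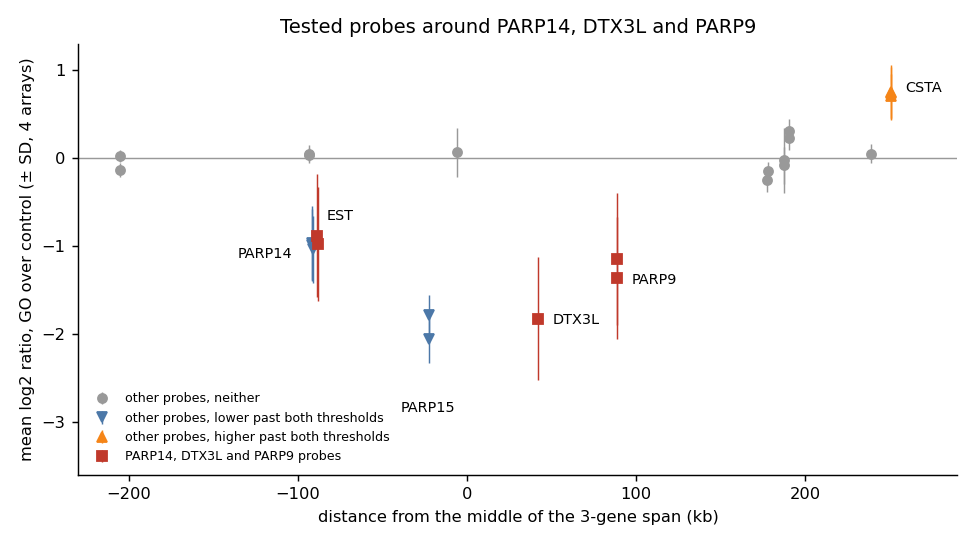
Mean log2 ratio (± SD, 4 arrays) of tested probes against their distance from the middle of the span of PARP14, DTX3L and PARP9, in kb; triangles mark other probes past both thresholds. Lower probes lie at the 3 genes, at PARP15 and at the tag (EST) beside PARP14, while probes of HSPBAP1 just left of it sit at 0.04 and 0.05 and CSTA is higher.

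Around SAMD9, 4 other probes were tested within 300 kb. The 2 probes of SAMD9L, 38.8 to 38.9 kb away, were lower, as was an unnamed probe at -1.04 kb from SAMD9 (mean log2 ratio -1.34 ± 0.88, adjusted p = 0.0297, limma, n = 4). The unnamed probe lies on the side of the stop codon read in SAMD9 probe A, and whether it belongs to the SAMD9 transcript was not tested. Around SAMHD1 0 of 18 probes passed both thresholds (9 at an unadjusted p under 0.05, limma), and around XAF1 0 of 7 (0 at an unadjusted p under 0.05, limma). Around IFI35, 0 of 45 were lower and 3 were higher, and at an unadjusted p under 0.05 (limma) 16 were lower and 9 higher. Many probes around IFI35, and some around SAMHD1, overlap others of the same transcript with a shift of a few bases. These counts are therefore of probes and not of genes. BST2, PARP12 and ZC3HAV1 had no place on a chromosome in the array files.

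Most muscle cell markers were also lower. Of 8 tested myogenic markers (DES, MYOD1, MYF5, MYOG, CDH15, CHRNA1, ACTA1 and MYH3) 7 were lower past both thresholds, with a median log2 ratio of -0.55, and PAX7 was above background on no array. That count was 2 with median centring in place of lowess, 2 of 9 without a filter on dim probes, 3 without the array as a block, 1 with a plain one-sample test and 4 without array 2. Their summed signal was 150220 to 202476 in control cells and 87442 to 120954 in GO-treated cells. Of 13 leukocyte markers 6 were tested and 0 passed (3 at an unadjusted p under 0.05, limma), with a median of 0.08, and CD3E, CD79A, ITGAM and CD163 were never well above background. Their summed signal was 15159 to 18445 in control cells and 16972 to 23398 in GO-treated cells. All 5 endothelial markers, PECAM1, CDH5, VWF, KDR and TEK, were never well above background. Of 5 tested fibroblast markers PDGFRA alone passed and was higher, at 0.87 ± 0.48 (adjusted p = 0.0198, limma, n = 4), with 0 passing when array 2, the block or the filter was left out, under normexp with loess, or in a plain one-sample test (1 to 2 at an unadjusted p under 0.05), and with summed signals of 102686 to 144165 and 101893 to 133977. The part of the myogenic and fibroblast shifts in the lower PARP and restriction factor signals was not tested.

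The calls of these genes did not hold under all alternatives. All 8 tested genes kept their sign in each of 86 values under the alternatives, but most of these signs were fixed in advance. Several alternatives reuse the deposited ratios, and a gene lower on all 4 arrays stays lower when 1 array is left out or arrays are weighted. With normexp and loess, or with median centring without lowess, the sign could change, and it did not. With normexp background correction and loess in place of the deposited ratios, 3 of the 8 (PARP12, XAF1 and IFI35) passed both thresholds, and without the array as a block DTX3L, PARP12 and IFI35 passed. With limma and no filter on dim probes 0 passed (8 at an unadjusted p under 0.05), and with a plain one-sample test 0 passed (5 at an unadjusted p under 0.05). PARP14 and SAMD9 were each lost without array 1, array 2 or array 3, and the other 5 genes were kept, whereas without array 4 all 7 were kept. The median log2 ratio of the 8 genes was -0.89 without array 3 and -0.63 with normexp and loess, where PARP9 had -0.76, PARP14 -0.58 and SAMD9 -0.40.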

How the data were processed

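RNA of GO-treated (Cy5) and control (Cy3) satellite cells was hybridized to 4 two-color arrays with 60-base probes. Per the file headers, the authors' Feature Extraction run was version 10.10.1.1, while the methods give another. The deposited intensity of each channel is a raw, background-subtracted or processed signal, the last detrended and normalized between dyes (linear, then lowess). The log10 ratio that the authors deposited, processed Cy5 over Cy3, was converted to log2. Control and outlier spots were left out and spots of a probe were averaged. The 4 columns of the authors' series table hold the same ratios and were not used.

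Testing was limited to the 26833 probes that one of the channels, GO or control, showed well above background on every array. Ratios were tested against 0, two-sided, with limma 3.58.1 in R 4.3.3 (intercept, eBayes, Benjamini-Hochberg; prior SD 0.14, 3.60 prior and 3 residual degrees of freedom), and the fit was tested on simulated data. Calls needed an adjusted p no higher than 0.05 and a 1.3-fold change. A gene is given by its brightest tested probe. Symbols came from the array files and otherwise from a RefSeq gene table of assembly TB-T2T, used for names only: 24958 probes were named by the file, 1684 by gene number, 432 by accession and 37 by description, and 16492 had no name. Genes named beyond the members were those of each list past both thresholds, at most 8 per list, with SAMD9L and NMI in any case; the result of 1 list gene is not reported here. The tag and probes near a member, HSPBAP1, CSTA, PARP10, PARP16, IFNB1, IFNA1, IFNG and the markers were chosen after their values were seen. The members and lists were chosen with earlier results of these data known. Promoter and protein sequences were not analysed here.

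The channels of an array were paired: deviations from the group means correlated at 0.48 to 0.86 within an array and at -0.54 to 0.24 between arrays. Alternatives were normexp (offset 50) with loess, median centring without lowess, other filters, a plain one-sample test, no block, array weights, the median over probes, and leaving out each array. Tables were handled with Python 3.11.15 and pandas 2.3.3.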

Additional observations from a re-analysis of the deposited data

How the results depend on the processing

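With normexp and loess, 1297 probes passed both thresholds, 3 of the genes described here and 3 other restriction factors, and the log2 ratio was -0.36 for DTX3L and -0.92 for XAF1. Without a filter on dim probes these counts were 908 probes, 0 genes and 1 restriction factor, with 0 partner genes (limma; 5 at an unadjusted p under 0.05) and 1 interferon signaling gene. The fit without the array as a block (no replicate block) gave 922 probes, 3 of the genes described here, 0 other PARP family genes (limma; 2 at an unadjusted p under 0.05), 1 partner, 1 restriction factor and 2 interferon signaling genes. A plain one-sample test gave 147 probes, 0 of the genes described here and 0 genes of the 4 lists (5 members, 3 PARP family genes, 5 partners, 5 restriction factors and 4 interferon signaling genes at an unadjusted p under 0.05). With both channels required above background, 0 other PARP family genes passed (limma; 4 at an unadjusted p under 0.05), as PARP15 was no longer tested. Leaving out 1 array gave 1566 to 2430 probes, 5 to 7 of the genes described here and 2 to 7 restriction factors: 2 without array 1, 3 without array 2, 3 without array 3 and 7 without array 4. The fewest probes, 1566, came without array 2. Of 86 log2 ratios of single genes, 84 moved by less than 1 SD, but many of them are left unchanged by the alternative's construction. Apart from the constructions named, the causes were not tested. Signal over background limits DTX3L, BST2 and the dimmer ZC3HAV1 probe to bounds, and leaves the size of the IFIH1 ratio uncertain.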
